A study of Hippophae rhamnoides with 3 samples.

Results

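The genes described here are the cytoskeleton and vesicle traffic genes among those whose tag counts differed between leaf libraries of cold-stressed, freeze-stressed and control seabuckthorn (Hippophae rhamnoides). They were chosen by the name of the best protein hit given for each gene in the deposited tables, where the name holds a word for actin, myosin, tubulin, kinesin, clathrin, dynamin, ADP-ribosylation, syntaxin, SNARE, Rab, vesicle, exocyst, coatomer, sorting or GTP-binding. Names with kinase or elongation were to be dropped, and none of the matched names held them. The words matched 37 of the 7713 genes listed in any of the 3 gene tables. The rule reads names and no measured value, but it was written with earlier results of these data known, and every gene listed had already passed the authors' limits in at least 1 comparison.

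The cytoskeleton of a plant cell is built of actin filaments and of microtubules, hollow tubes of alpha-tubulin and beta-tubulin. Myosins walk along actin and carry organelles and vesicles, while kinesins walk along microtubules, and some of them build the spindle and the phragmoplast that divide a cell. Vesicles are budded by coat proteins under the control of small GTPases, are cut off by dynamins, are tethered by complexes such as the exocyst and are fused by SNARE proteins, to which syntaxins and vesicle-associated membrane proteins belong. Microtubules in plant cells are known to be sensitive to low temperature, and membrane traffic renews the plasma membrane that freezing damages.

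Plantlets 30 days old were used, with 1 leaf library for each of 3 conditions. Plantlets of the freeze stress library (FS) were held at -10 °C for 6 hours, those of the cold stress library (CS) at 4 °C for 6 hours, and the control library (CON) is labelled 28 °C for 6 hours. All had grown from surface-sterilised seed in a chamber kept at 28 °C, and how many plants were pooled in a library is not given in the sources used here. Expression was measured by DeepSAGE, in which NlaIII cuts the cDNA at CATG and the tag of 21 bases that starts there is sequenced and counted. A level in TPM is the tag count scaled to the clean tags of the library, in transcripts per 1000000. The depth, recovered from both columns of the tables, was 11908614 clean tags in FS, 12010122 in CS and 11566379 in CON. As the depths are close, tag counts are given below as deposited, and log2 ratios are ratios of counts over clean tags. Each condition had 1 library, so that no difference could be set against a spread between replicates and no test was possible. The 95% intervals in square brackets are exact (Clopper-Pearson) and cover counting error only, since copies made by PCR were not marked and cannot be told from separate molecules. They compare libraries, not conditions. A gene is called listed where the authors placed it in the table of that comparison. For this a change of at least 2-fold was needed, and the authors' limit on the false discovery rate (FDR) had to be met. A gene at 0 tags was set to 3 tags (0.252 TPM in FS, 0.25 TPM in CS and 0.259 TPM in CON). Its fold then leaves out the counting error of the other library, and its interval is open on the side of the 0.

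The 37 genes stood for 34 different best hits, of which 25 were proteins of castor bean (Ricinus communis). Of the 37 genes, 22 were listed in 1 table, 15 in 2 tables and 0 in all 3 tables. The 15 genes in 2 tables have a count in every library, while for the other 22 the count in the library left out of their table is not known from the gene tables. A gene is in 2 tables where the library that both share stands apart from the other two, so that for the 15 genes this pattern is set by the listing and is given as a description. Counts were known for 31 of the genes in FS, 27 in CS and 31 in CON, with medians of 65 tags in FS, 63 in CS and 57 in CON and highest values of 803 tags in FS, 896 in CS and 516 in CON. By name they fell into 8 roles, with 13 microtubule genes, 7 of tethering and fusion, 5 other GTP-binding proteins, 4 actin and myosin genes, 3 sorting genes, 2 coat and scission genes, 2 small GTPase genes and 1 ADP-ribosylation factor.

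**Figure D1:**
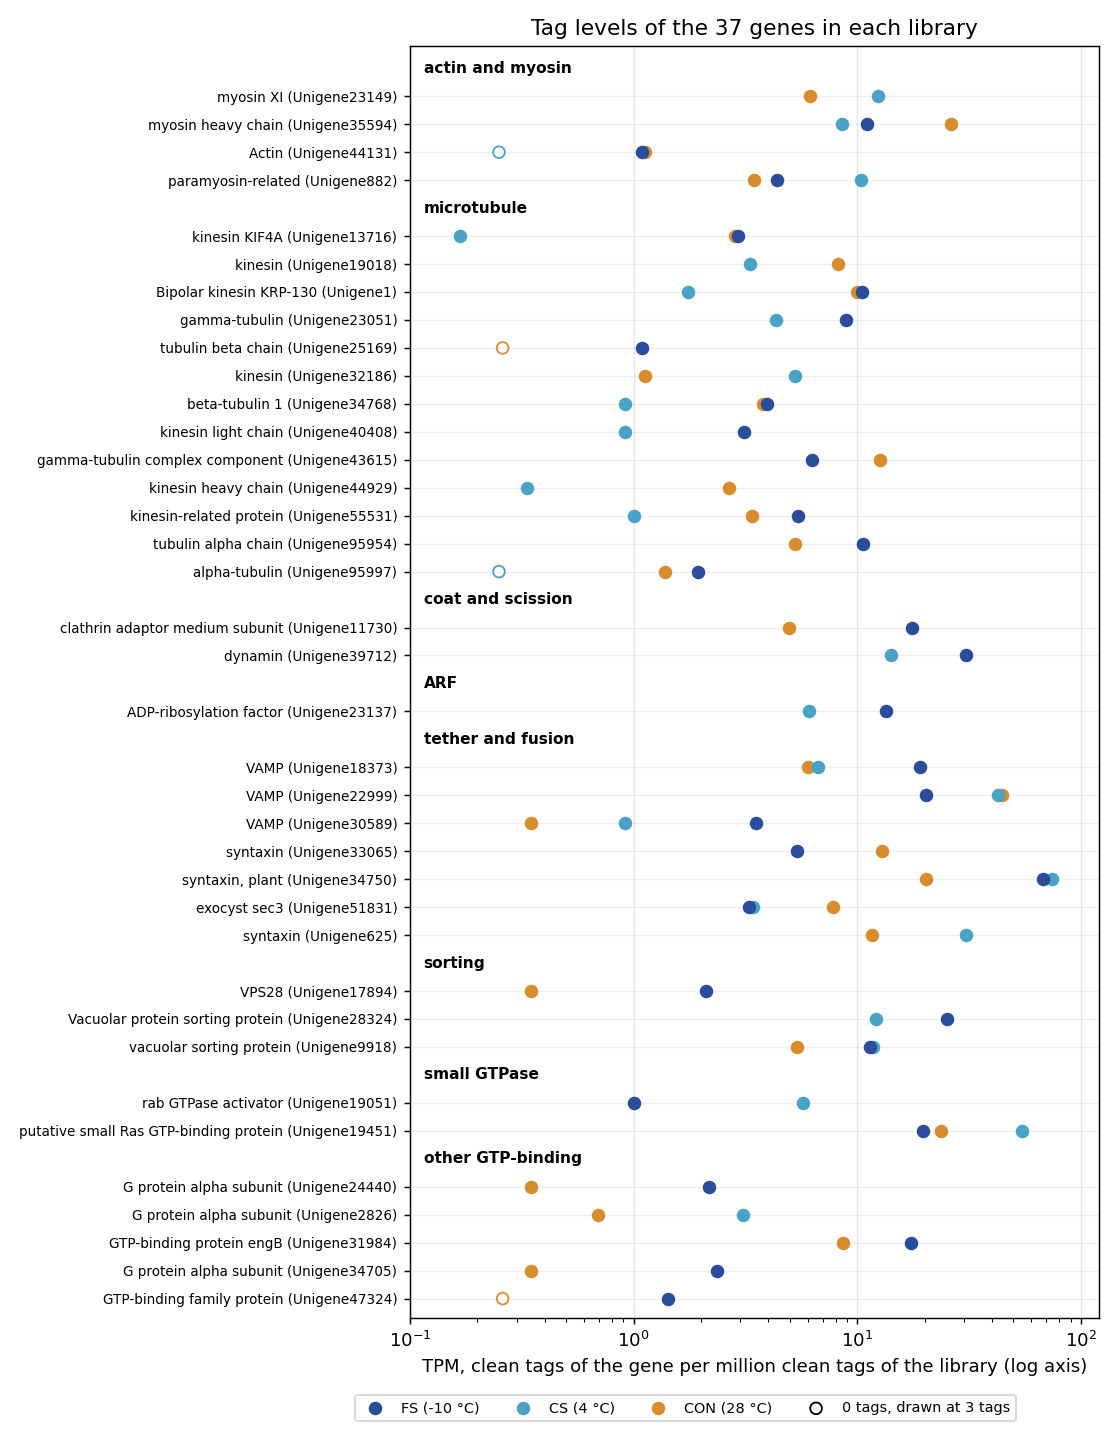
Tag levels of the 37 genes by role, in TPM on a log axis, with a point for each library (FS, CS and CON) in which the gene has a count and open points for 0 tags drawn at the level of 3 tags. Bipolar kinesin KRP-130, kinesin KIF4A, beta-tubulin 1 and alpha-tubulin have their FS and CON points side by side and their CS point far to the left.

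In CS vs CON, 18 of the 37 genes were listed (48.6%), against 50.2% of all 7713 genes. Of these 18 genes, 8 were higher in CS (44.4%), where 53.0% of all listed genes were, and 10 were lower (55.6%), against 47.0% of all listed genes. In FS vs CON, 17 genes were listed (45.9%, against 52.5% of all genes), of which 12 were higher in FS (70.6%, against 56.2% of all listed genes) and 5 were lower (29.4%, against 43.8%). In FS vs CS, 17 genes were listed (45.9%, against 51.8%), with 13 higher in FS (76.5%, against 55.3%) and 4 lower (23.5%, against 44.7%). The cytoskeleton and vesicle traffic genes were thus listed about as often as other genes, and whether their directions differ from those of the others was not tested. The median log2 ratio of the listed members was -1.25 in CS vs CON (1.08 over all listed genes), 1.66 in FS vs CON (1.18 over all) and 1.52 in FS vs CS (1.12 over all). The CS vs CON median was taken over 8 positive and 10 negative values and lies between the smallest falls, -1.30 and -1.19. It was -0.09 without the 2 genes at 0 tags, and likewise with a minimum of 30 tags in the higher library. Under that minimum the FS vs CON median was 1.01. Without the role of other GTP-binding proteins the FS vs CON median was 1.09, against 1.18 over all listed genes. The median size of the change, whatever its sign, was 1.82, 1.66 and 1.76 on the log2 scale in the same order, against 1.73, 1.68 and 1.66 over all listed genes. Each pair of these comparisons shares a library, so a low value in CS enters both CS vs CON and FS vs CS.

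**Figure D2:**
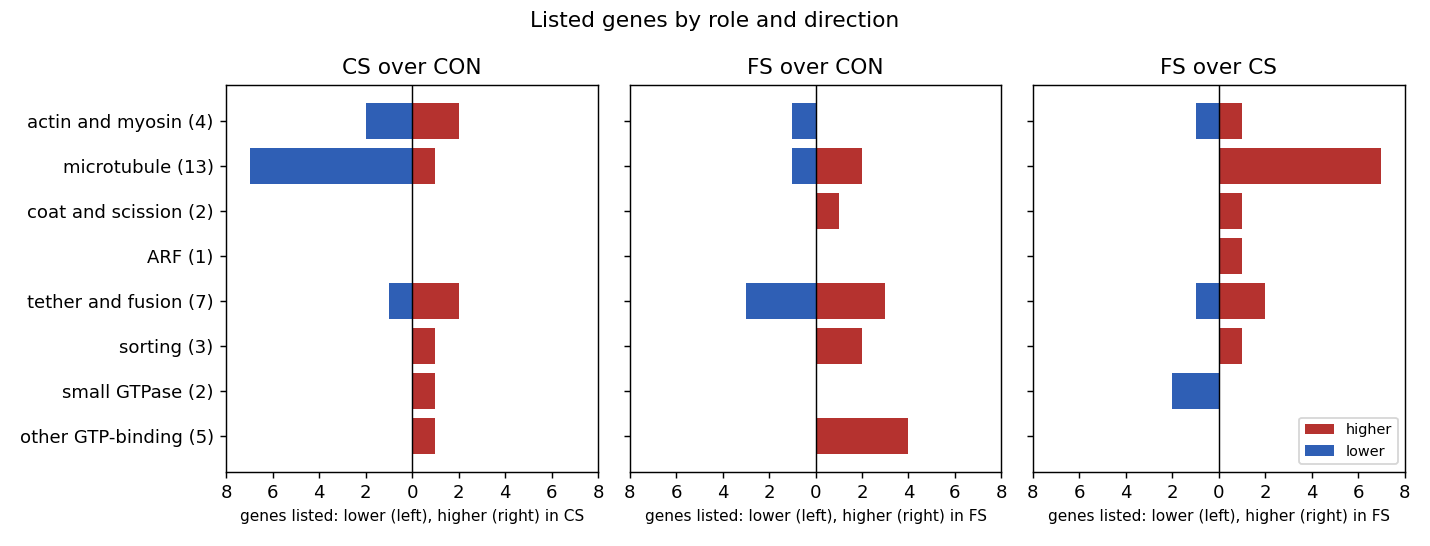
Number of listed genes of each role that were lower (left of 0) or higher (right of 0) in the colder library, in CS over CON, FS over CON and FS over CS. The number in brackets after each role is its number of genes. The microtubule genes have 7 lower and 1 higher in CS over CON and 7 higher and 0 lower in FS over CS.

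Of the 13 microtubule genes most of those listed in CS vs CON were lower in CS. In this comparison 8 of the 13 were listed, 7 of them lower and 1 higher in CS, with a median log2 ratio of -2.26. Among the kinesins 5 were lower and 1 was higher, and both listed tubulins were lower. In FS vs CON 3 of the 13 were listed, 2 higher and 1 lower in FS, and no kinesin was among them. In FS vs CS 7 were listed, all 7 higher in FS, 4 of them kinesins and 3 of them tubulins, with a median of 2.45. The tags that carry these values are shown so that each gene can be traced, with the NlaIII site in capitals and the following 17 bases in lower case. Each is the listed sense tag with the most copies, and each lies at the CATG nearest the 3′ end of its gene.
Bipolar kinesin KRP-130 (Unigene1_All): CATGcaaacggagatgttaag
Chromosome-associated kinesin KIF4A (Unigene13716_All): CATGtggttgtgtgtctacta
kinesin-related protein (Unigene55531_All): CATGtgggtgcttgttgcaaa
kinesin heavy chain (Unigene44929_All): CATGtaatctttttttcttta
kinesin (Unigene19018_All): CATGtgcaaataggagagtat
kinesin (Unigene32186_All): CATGagactttgtatcattgt
alpha-tubulin (Unigene95997_All): CATGacgaggatcacacttgg

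Bipolar kinesin KRP-130 (Unigene1_All) is named for the kinesins that push spindle poles apart by sliding antiparallel microtubules. It had 125 tags in FS, 21 in CS and 115 in CON. The CS library was low and the FS and CON libraries were alike, with a log2 ratio of -2.51 [-3.25 to -1.83] for CS over CON (5.69-fold lower), 2.59 [1.91 to 3.33] for FS over CS and 0.08 [-0.30 to 0.46] for FS over CON. Its tag printed above held 123 of the 125 tags in FS and all of the tags in CS and CON.

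Chromosome-associated kinesin KIF4A (Unigene13716_All), known in animals as a motor of condensed chromosomes and the spindle midzone, had 35 tags in FS, 2 in CS and 33 in CON. At 2 tags in CS the ratio is loosely bounded, with a log2 ratio of -4.10 [-7.20 to -2.13] for CS over CON and 4.14 [2.18 to 7.24] for FS over CS. The FS and CON libraries differed by 0.04 [-0.69 to 0.77]. A kinesin-related protein (Unigene55531_All) had 65 tags in FS, 12 in CS and 39 in CON. It was again lowest in CS, with a log2 ratio of -1.75 [-2.82 to -0.79] for CS over CON and 2.45 [1.55 to 3.47] for FS over CS, and its FS over CON ratio of 0.69 [0.10 to 1.31] was above 0 but below the 2-fold limit.

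Beta-tubulin 1 (Unigene34768_All), a subunit of the microtubule wall, had 47 tags in FS, 11 in CS and 44 in CON. Its log2 ratio was -2.05 [-3.16 to -1.08] for CS over CON, 2.11 [1.14 to 3.20] for FS over CS and 0.05 [-0.57 to 0.68] for FS over CON. Alpha-tubulin (Unigene95997_All), its partner in the tubulin dimer, had 23 tags in FS, 0 in CS and 16 in CON. With 0 set to 3 tags the gene was 5.54-fold lower in CS than in CON and 7.73-fold higher in FS than in CS. These folds leave out the counting error of the other library and are not lower limits. FS and CON differed by 0.48 [-0.50 to 1.50] on the log2 scale. These 5 genes, KRP-130, KIF4A, the kinesin-related protein, beta-tubulin 1 and alpha-tubulin, are the microtubule genes with a count in every library, and CS was the lowest library in each of them. They are those listed in both CS vs CON and FS vs CS and not in FS vs CON, which fixes that CS stands apart but not its direction. The paramyosin-related Unigene882_All and the small Ras GTP-binding Unigene19451_All have the same listing with CS highest.

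For the other microtubule genes the count in 1 library is not known. Kinesin heavy chain (Unigene44929_All), the motor part of the protein, had 4 tags in CS and 31 in CON, with a log2 ratio of -3.01 [-4.97 to -1.51]. A pair of Unigenes had the same best hit, a castor bean kinesin, and opposite directions. The kinesin Unigene19018_All had 40 tags in CS and 95 in CON, with a log2 ratio of -1.30 [-1.87 to -0.75], and the kinesin Unigene32186_All had 63 tags in CS and 13 in CON, with a log2 ratio of 2.22 [1.35 to 3.21]. Both carry the GO process term spindle assembly involved in male meiosis, copied from the best hit. Whether they are 2 genes, alleles or parts of 1 transcript was not tested.

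Kinesin light chain (Unigene40408_All), which in animals ties kinesin to its cargo, had 37 tags in FS and 11 in CS, with a log2 ratio of 1.76 [0.76 to 2.88]. Gamma-tubulin (Unigene23051_All), the template from which microtubules are nucleated, had 106 tags in FS and 52 in CS, with a ratio of 1.04 [0.55 to 1.55]. This name rests on a weak hit, with an E-value of 1.82e-08. A gamma-tubulin complex component (Unigene43615_All) of the same nucleating complex had 75 tags in FS and 146 in CON, was 2-fold lower in FS (log2 interval [-1.42 to -0.59]) and was thus the only microtubule gene listed as lower in FS. A tubulin alpha chain (Unigene95954_All) had 127 tags in FS and 61 in CON, with a log2 ratio of 1.02 [0.56 to 1.48]. A tubulin beta chain (Unigene25169_All) had 13 tags in FS and 0 in CON. With 0 set to 3 tags it was 4.21-fold higher in FS, with a log2 interval that starts at 1.57. The tubulin names were thus not moved in 1 direction against CON, since both listed in CS vs CON were lower, while 2 of the 3 listed in FS vs CON were higher. The genes on the 2 sides are different Unigenes.

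**Figure D3:**
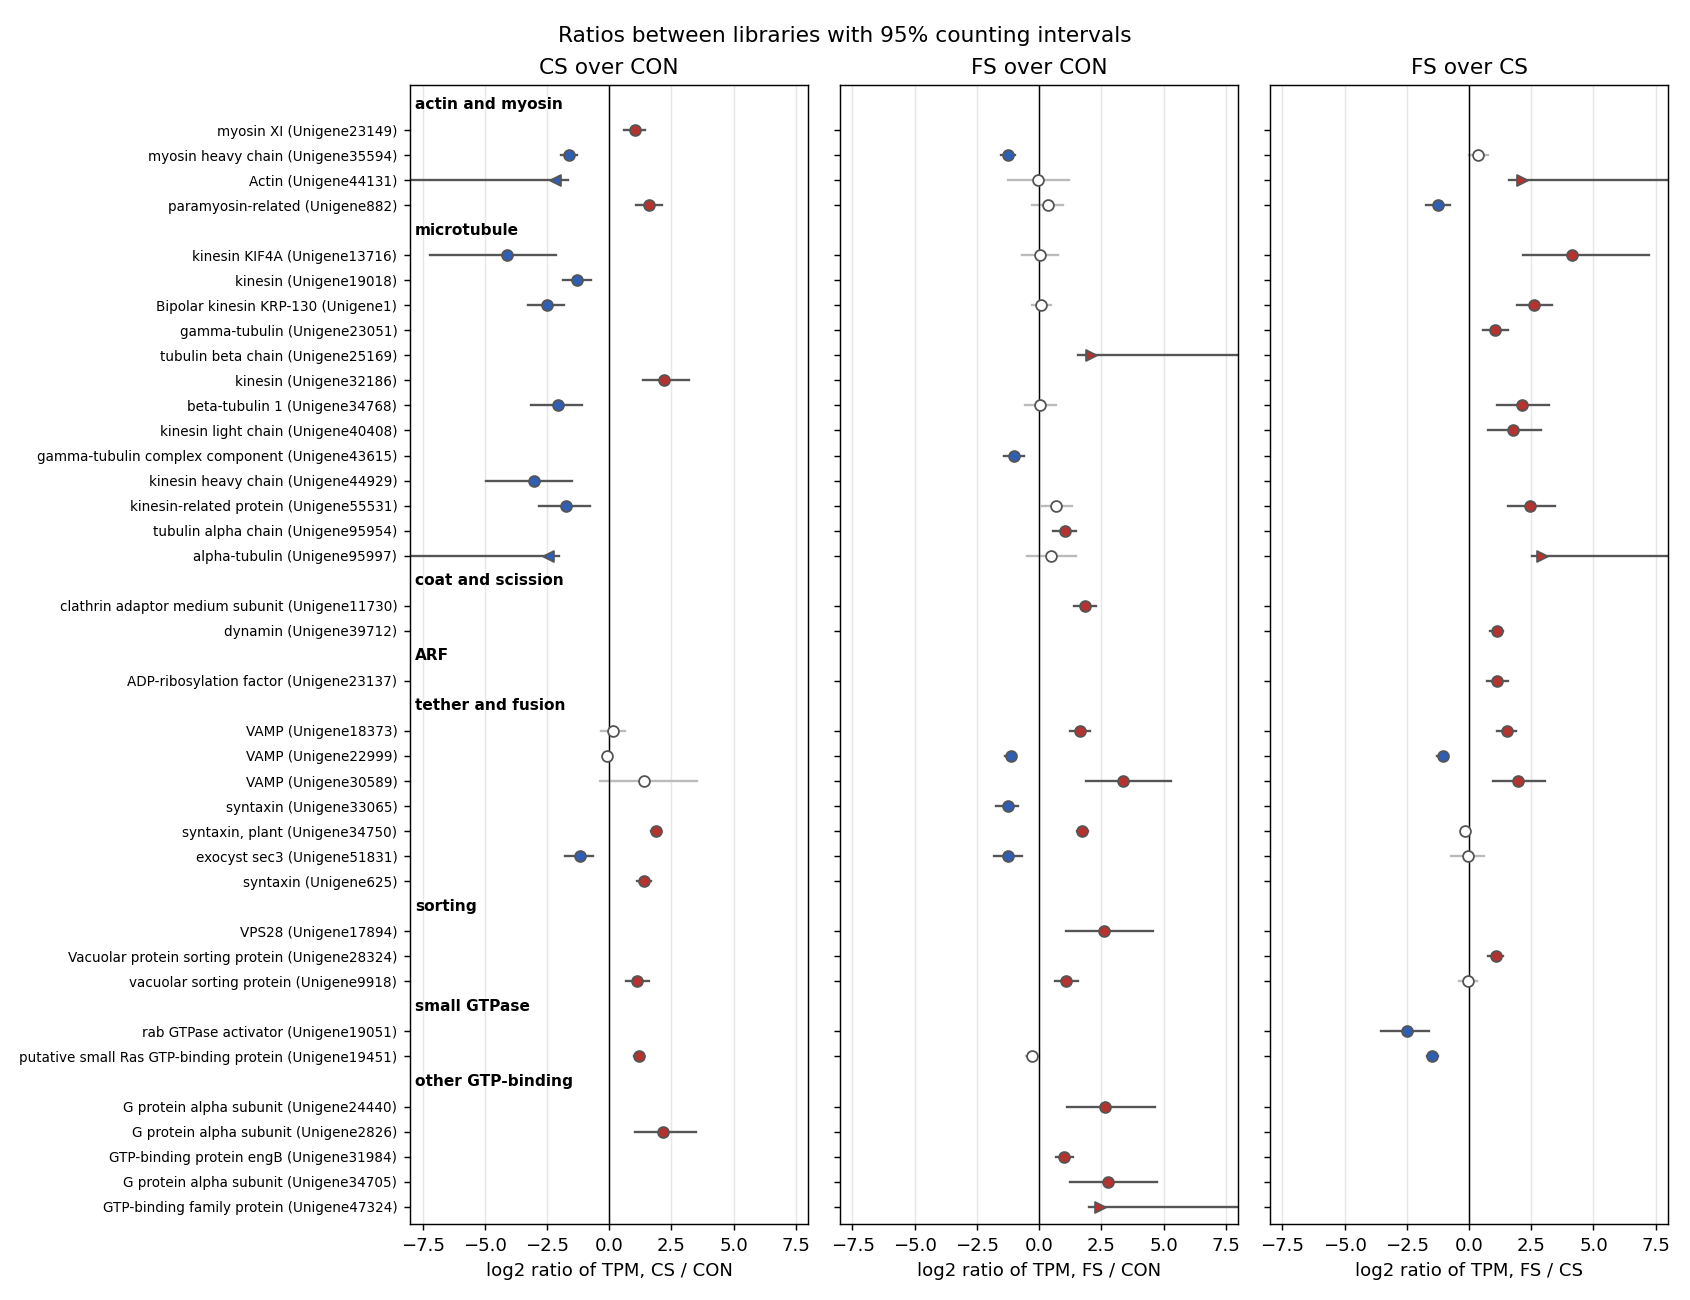
Log2 ratios of TPM for each gene, CS over CON, FS over CON and FS over CS, with bars for the 95% counting interval. Filled points are genes listed in that comparison (blue lower, red higher), open points are genes not listed, and triangles mark bounds against 0 tags. In FS over CON the kinesin and tubulin points with a count in every library are open and near 0, apart from the kinesin-related protein at 0.69.

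All 4 genes of the actin and myosin role were listed in CS vs CON, 2 higher and 2 lower in CS. In FS vs CON 1 was listed, lower in FS, and in FS vs CS 1 was higher and 1 was lower in FS. The tags below are those of the genes with sense tags in the tag tables, shown because 2 of the names are those of animal muscle proteins, which have no counterpart tissue in a leaf.
myosin heavy chain, striated muscle (Unigene35594_All): CATGattgtgaagttttcatt
paramyosin-related (Unigene882_All): CATGtaaacattgaaagttga
myosin XI (Unigene23149_All): CATGtgacaaaacttaatgga

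Actin (Unigene44131_All), the subunit of actin filaments, had 13 tags in FS, 0 in CS and 13 in CON. It was at least 4.5-fold lower in CS than in CON and at least 4.37-fold higher in FS than in CS, and FS and CON differed by -0.04 [-1.27 to 1.19] on the log2 scale. The counts are low, and this is the only Unigene with the whole word actin in its name among the listed genes. An actin transcript was the endogenous control of the study's qRT-PCR, and whether it is this Unigene is not given in the sources used here.

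Myosin XI (Unigene23149_All), a plant motor that drives organelle movement along actin, had 149 tags in CS and 71 in CON, with a log2 ratio of 1.02 [0.60 to 1.44]. This name rests on a hit with an E-value of 5.92e-15. The Unigene named for myosin heavy chain of striated muscle (Unigene35594_All) had 132 tags in FS, 103 in CS and 304 in CON. Both stress libraries were low, with a log2 ratio of -1.25 [-1.55 to -0.95] for FS over CON and -1.62 [-1.95 to -1.29] for CS over CON, and they differed from each other by 0.37 [-0.01 to 0.76]. The paramyosin-related Unigene (Unigene882_All) had 52 tags in FS, 125 in CS and 40 in CON. Here CS alone was high, with a log2 ratio of 1.59 [1.07 to 2.14] for CS over CON and -1.25 [-1.75 to -0.78] for FS over CS, and 0.34 [-0.29 to 0.97] for FS over CON.

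The genes of the coat and scission role were higher in FS where they were listed. A clathrin adaptor medium subunit (Unigene11730_All), which in other organisms reads the sorting signals of cargo, had 209 tags in FS and 57 in CON, with a log2 ratio of 1.83 [1.40 to 2.28]. Its gene count in CS is not known, but its sense tag, CATGggagttgcactctctgg, had 205 copies in FS, 116 in CS and 55 in CON, so that CS lay between FS and CON. Dynamin (Unigene39712_All), of the family of GTPases that constrict membrane necks, had 364 tags in FS and 170 in CS, with a log2 ratio of 1.11 [0.84 to 1.38]. Its hit had an E-value of 4.21e-15. This Unigene carries the GO process terms pollen development and mitochondrion organization, and whether it cuts off vesicles was not tested. The ADP-ribosylation factor (Unigene23137_All), a small GTPase that recruits coats to membranes, had 160 tags in FS and 73 in CS, with a log2 ratio of 1.14 [0.74 to 1.56].

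The 7 genes of tethering and fusion held the member with the most tags and moved in both directions. In CS vs CON 3 were listed, 2 higher and 1 lower in CS. In FS vs CON 6 were listed, 3 higher and 3 lower in FS, and in FS vs CS 3 were listed, 2 higher and 1 lower in FS. The tags of genes named for SNARE proteins are shown because genes with nearly the same name went in opposite directions, and the letters keep them apart. All but the second tag of Unigene33065_All lie at the CATG nearest the 3′ end.
syntaxin, plant (Unigene34750_All): CATGtaacagaagcaacactc
syntaxin (Unigene625_All): CATGctttgctattatacttt
syntaxin (Unigene33065_All), nearest site: CATGagatgatgtacagagct
syntaxin (Unigene33065_All), second site: CATGaatttgactaccattta
VAMP (Unigene18373_All): CATGggaatttgtctaccagc
VAMP (Unigene22999_All): CATGcaataataaatgatttt

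Syntaxin, plant (Unigene34750_All) had 803 tags in FS, 896 in CS and 234 in CON. Both stress libraries were high, with a log2 ratio of 1.74 [1.52 to 1.95] for FS over CON (3.33-fold) and 1.88 [1.67 to 2.10] for CS over CON (3.69-fold), and they differed by -0.15 [-0.29 to -0.01]. Syntaxins are the SNARE proteins of the membrane that receives a vesicle. This Unigene carries the GO process terms defense response and response to other organism. A second syntaxin (Unigene625_All), which carries plant-type hypersensitive response among its terms, had 369 tags in CS and 135 in CON, with a log2 ratio of 1.40 [1.11 to 1.69]. Its sense tag, known in every library, had 145 copies in FS, 259 in CS and 62 in CON, and was thus above CON in both stress libraries. It held 70.2% of the tags of the gene in CS and 45.9% in CON.

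Another syntaxin (Unigene33065_All), annotated to Golgi-associated vesicles, had 64 tags in FS and 150 in CON, with a log2 ratio of -1.27 [-1.72 to -0.84]. Its tag at the site nearest the 3′ end had 43 copies in FS and 88 in CON. Its tag at the second site had 13 copies in FS, 16 in CS and 51 in CON, low in both stress libraries. The 3 syntaxin genes were therefore split, Unigene34750_All and Unigene625_All being higher and Unigene33065_All lower in stress libraries where listed.

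The 3 Unigenes named Vesicle-associated membrane protein (VAMP), a name of the SNARE carried by the vesicle, were split as well. Unigene18373_All and Unigene30589_All carry the GO terms nuclear envelope and RNA export from nucleus, which are not those of a vesicle SNARE. Only Unigene22999_All carries the term cytoplasmic vesicle. Whether the 3 are SNARE proteins was not tested. VAMP Unigene18373_All had 227 tags in FS, 80 in CS and 70 in CON. Only FS was high, with a log2 ratio of 1.66 [1.26 to 2.06] for FS over CON, 1.52 [1.14 to 1.90] for FS over CS and 0.14 [-0.34 to 0.62] for CS over CON. VAMP Unigene30589_All, which has the same best hit, had 42 tags in FS, 11 in CS and 4 in CON. It was also highest in FS, with a log2 ratio of 3.35 [1.89 to 5.29] for FS over CON (10.2-fold) and 1.95 [0.96 to 3.05] for FS over CS, while its CS over CON ratio of 1.41 [-0.35 to 3.51] had an interval that holds 0. VAMP Unigene22999_All had 242 tags in FS, 510 in CS and 516 in CON. Here FS alone was low, with a log2 ratio of -1.13 [-1.36 to -0.91] for FS over CON, -1.06 [-1.29 to -0.84] for FS over CS and -0.07 [-0.25 to 0.11] for CS over CON. All 3 VAMP genes were listed in FS vs CON and in FS vs CS and not in CS vs CON.

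The exocyst component sec3 (Unigene51831_All), which in yeast marks where vesicles dock at the plasma membrane, had 39 tags in FS, 41 in CS and 90 in CON. Both stress libraries were low, with a log2 ratio of -1.25 [-1.83 to -0.69] for FS over CON, -1.19 [-1.76 to -0.64] for CS over CON and -0.06 [-0.73 to 0.61] for FS over CS. Its tag was CATGagttgggcgtagaccac, which held all of its counts.

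The 3 genes of vacuolar sorting were each higher in every comparison in which they were listed. The vacuolar sorting protein Unigene9918_All had 136 tags in FS, 141 in CS and 62 in CON, with a log2 ratio of 1.09 [0.65 to 1.55] for FS over CON, 1.13 [0.69 to 1.59] for CS over CON and -0.04 [-0.39 to 0.31] for FS over CS. The vacuolar protein sorting protein Unigene28324_All had 301 tags in FS and 145 in CS, with a log2 ratio of 1.07 [0.78 to 1.36]. VPS28 (Unigene17894_All), a subunit of the ESCRT-I complex that sorts ubiquitinated membrane proteins at the endosome, had 25 tags in FS and 4 in CON, with a log2 ratio of 2.60 [1.07 to 4.58].

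Of the small GTPase role, the putative small Ras GTP-binding protein (Unigene19451_All) was matched only by the words GTP-binding. It carries the GO process terms nuclear transport and protein targeting, and whether it acts in vesicle traffic was not tested. It had 234 tags in FS, 654 in CS and 275 in CON. CS alone was high, with a log2 ratio of 1.20 [0.99 to 1.40] for CS over CON and -1.47 [-1.69 to -1.25] for FS over CS, and the FS over CON ratio was -0.27 [-0.53 to -0.02], not listed. A pair of tags at different CATG sites of this Unigene, shown because they disagree, had opposite directions in CS vs CON.
Unigene19451_All, nearest site: CATGgattccaacttaattgt
Unigene19451_All, site 3 from the 3′ end: CATGtatcgaaaattatgatc

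The tag at the nearest site of Unigene19451_All had 178 copies in FS, 562 in CS and 179 in CON, with a log2 ratio of 1.60 [1.35 to 1.85] for CS over CON. The tag at site 3 had 38 copies in CS and 79 in CON, with a ratio of -1.11 [-1.71 to -0.53]. The share of the gene in this second tag was 5.81% in CS and 28.7% in CON. The other member of the role, a rab GTPase activator (Unigene19051_All), is named for proteins that switch Rab GTPases off. It had 12 tags in FS and 69 in CS, with a log2 ratio of -2.51 [-3.53 to -1.62], on a hit with an E-value of 9.77e-15.

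The remaining 5 genes were also matched only by the words GTP-binding. Their names place them in signalling or in other GTPase families rather than in membrane traffic. All 5 were higher in a stress library than in CON. A pair of Unigenes with the same G protein alpha subunit as best hit had 28 tags in FS and 4 in CON (Unigene34705_All, log2 ratio 2.77 [1.25 to 4.74]) and 26 tags in FS and 4 in CON (Unigene24440_All, log2 ratio 2.66 [1.13 to 4.64]). Another G protein alpha subunit (Unigene2826_All) had 37 tags in CS and 8 in CON, with a log2 ratio of 2.16 [1.03 to 3.47]. GTP-binding protein engB (Unigene31984_All), known from bacteria as a factor of ribosome assembly, had 207 tags in FS and 100 in CON, with a ratio of 1.01 [0.66 to 1.37]. A GTP-binding family protein (Unigene47324_All) had 17 tags in FS and 0 in CON. With 0 set to 3 tags it was 5.5-fold higher in FS, with a log2 interval that starts at 2.00. They supply 4 of the 12 members listed as higher in FS vs CON.

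The tag tables hold 40 listed tags for 32 of the 37 genes, 30 in the sense and 10 in the antisense direction as the authors assigned them, and none of the 40 matched several genes. No tag was listed for 5 genes, among them beta-tubulin 1 and VAMP Unigene30589_All. Of the 30 sense tags, 24 lay at the CATG nearest the 3′ end, and a sense tag held a median of 99.8% of the count of its gene over 68 pairs of tag and library. Sense tags went in the direction of their gene in 14 of 15 cases in CS vs CON, the exception being the site 3 tag of Unigene19451_All above, and in all 13 cases in FS vs CON and all 12 in FS vs CS. Antisense tags were listed for 8 genes, of which 4 had no listed sense tag. Tags of both directions were thus listed for 4 genes. The antisense tags of 4 of the 8 genes are printed here, again from the NlaIII site, since they show the cases in which the tag overlapped another, opposed its gene, outnumbered it or followed it.
myosin XI (Unigene23149_All), site 3: CATGacctttcatattatgat
myosin XI (Unigene23149_All), site 2: CATGcatgacctttcatatta
kinesin light chain (Unigene40408_All): CATGtatagggttgaagtttt
G protein alpha subunit (Unigene2826_All): CATGactaactcactgggtgg
actin (Unigene44131_All): CATGaaaatcaaagttgttgc

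The antisense tags of myosin XI (Unigene23149_All) overlap, since their sites lie 4 bases apart, yet they differed. The tag of site 3 had 92 copies in FS, 19 in CS and 22 in CON and was high in FS, with a log2 ratio of 2.02 [1.34 to 2.76] for FS over CON. The tag of site 2 had 34 copies in FS, 103 in CS and 125 in CON and was low in FS, with a log2 ratio of -1.92 [-2.51 to -1.36] for FS over CON. Summed, they had 126 copies in FS, 122 in CS and 147 in CON, which lie closer together than the counts of either tag.

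The antisense tag of kinesin light chain (Unigene40408_All) had 119 copies in FS, 358 in CS and 363 in CON. Its log2 ratio of -1.58 [-1.89 to -1.27] for FS over CS was opposite to that of the gene, 1.76, and the antisense tag was the more abundant in both libraries. The antisense tag of G protein alpha subunit Unigene2826_All had 386 copies in FS, 580 in CS and 71 in CON, with a log2 ratio of 2.98 [2.62 to 3.35] for CS over CON, against 37 tags in CS and 8 in CON for the gene itself. The antisense tag of actin (Unigene44131_All) had 16 copies in CS and 62 in CON, with a log2 ratio of -2.01 [-2.90 to -1.20], the same direction as the gene, and it too was more abundant than the gene, which had 0 tags in CS and 13 in CON. The orientation of the reference sequences is not given in the sources used here, so that antisense stands for the direction the authors assigned.

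The remaining antisense tags belonged to traffic and myosin genes. The antisense tag of syntaxin, plant (Unigene34750_All) had 82 copies in FS, 59 in CS and 19 in CON, high in both stress libraries like the gene. That of syntaxin Unigene625_All had 20 copies in FS and 0 in CON, and that of VPS28 (Unigene17894_All) had 47 copies in CS and 8 in CON. The Unigene named for striated muscle myosin (Unigene35594_All) had a pair of them, with 7 copies in CS and 35 in CON for the first and 19 copies in FS and 0 in CS for the second.

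**Figure D4:**
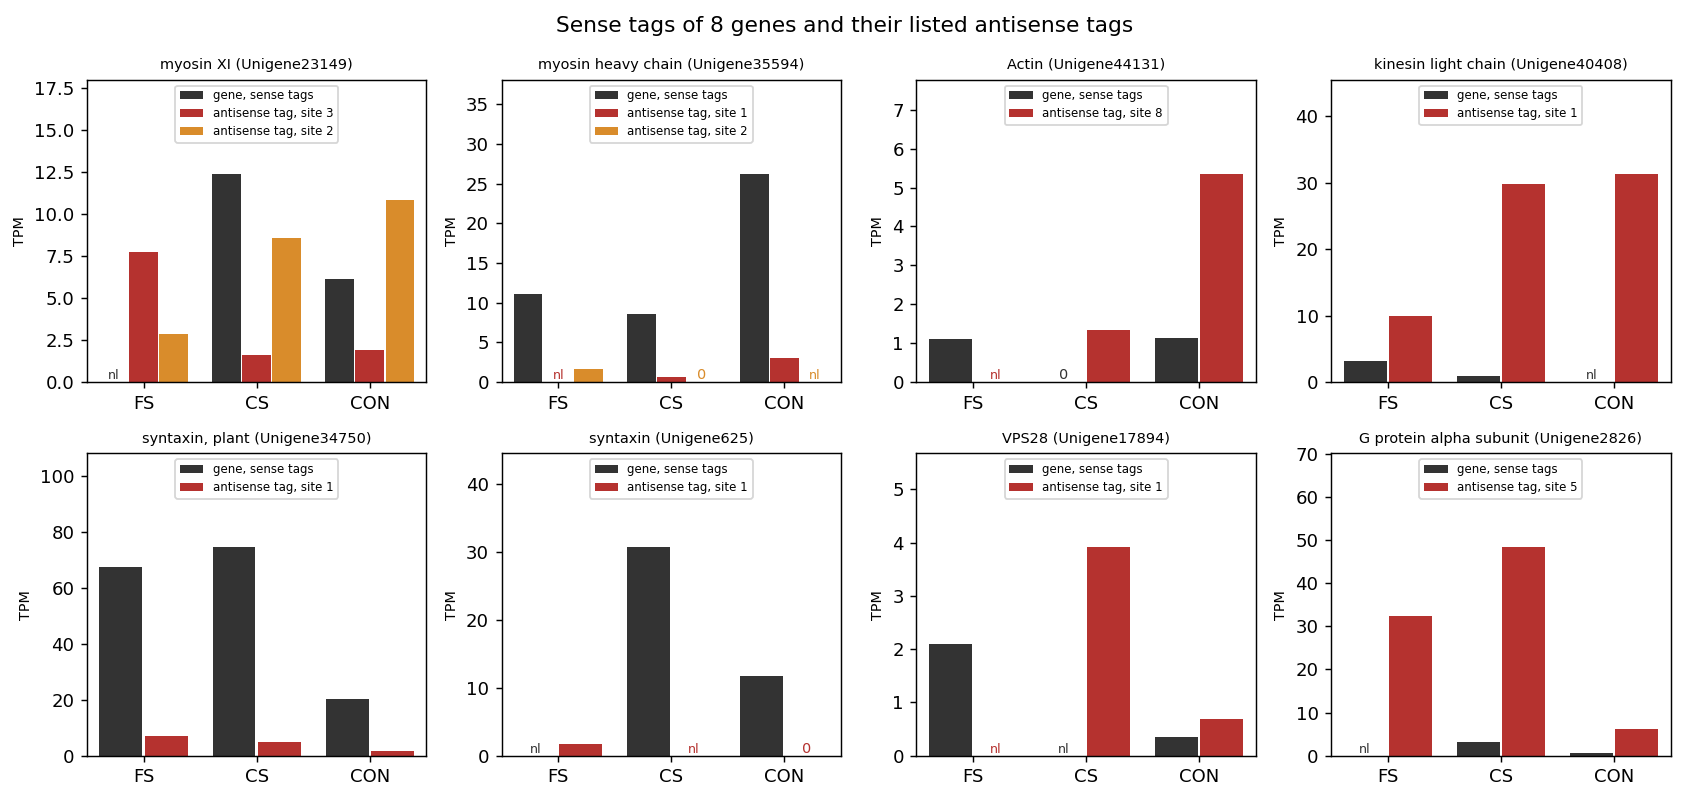
Levels in TPM of the gene count (sense tags, dark) and of each listed antisense tag (red and orange) for the 8 genes with listed antisense tags, in FS, CS and CON. Sites are numbered from the 3′ end, 0 marks 0 tags and nl marks a count that is not listed. The antisense bars of kinesin light chain, G protein alpha subunit and actin are taller than those of their genes in each library where both are counted. In CON so are those of VPS28 and of site 2 of myosin XI.

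Genes of the same pathways whose names lie outside the words used were searched by a second list of names (profilin, formin, COPII and adaptor subunits, golgins, synaptotagmins and tethering complexes among them), and 9 were listed. In CS vs CON 6 of the 9 were listed (50.2% of all genes were), 2 higher and 4 lower in CS (53.0% of all listed genes were higher). In FS vs CON 4 were listed (52.5% of all genes), 2 higher and 2 lower in FS (56.2% of all listed higher), and in FS vs CS 5 were listed (51.8% of all genes), 3 higher and 2 lower in FS (55.3% of all listed higher). With 9 genes nothing is read from these counts. The AP-2 complex subunit beta-1 (Unigene38959_All), a partner of the medium subunits in endocytosis, had 119 tags in FS, 48 in CS and 109 in CON, and CS was the low library. The COPII coat protein Sec24A (Unigene31543_All), which selects cargo leaving the endoplasmic reticulum, had 54 tags in FS, 11 in CS and 5 in CON, with a log2 ratio of 3.39 [2.08 to 5.07] for FS over CON. Profilin-3 (Unigene23127_All), which binds actin monomers, had 27 tags in FS, 123 in CS and 37 in CON, with a log2 ratio of 1.68 [1.14 to 2.25] for CS over CON, opposite in sign to that of actin in the same comparison.

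A Conserved oligomeric Golgi complex component (Unigene6847_All), a tether of Golgi vesicles, had 64 tags in FS, 55 in CS and 145 in CON and was low in both stress libraries like exocyst sec3. Golgin candidate 2 (Unigene1198_All) had 154 tags in FS, 65 in CS and 196 in CON, and a trafficking protein particle complex subunit (Unigene1960_All) had 67 tags in FS and 11 in CON. Of 2 synaptotagmins, which in plants help to repair and hold the plasma membrane, Unigene11844_All had 182 tags in CS and 494 in CON, and Unigene23160_All had 4 tags in FS, 27 in CS and 4 in CON. The ninth gene, a run and tbc1 domain protein (Unigene53535_All), had 17 tags in FS and 53 in CON.

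Marker genes of leaf and of other tissues were looked up, and their levels are known only where they are listed. The leaf label could not be checked in this way, since a gene in no table may still be expressed. The 6 listed leaf markers (Rubisco small subunit and light-harvesting proteins) were above 0 wherever counted, with a highest gene at 6206 tags in FS, 8634 in CS and 22282 in CON. Those with a count summed to 632 TPM in FS (5 genes), 967 TPM in CS (6 genes) and 2654 TPM in CON (5 genes). The 4 genes named for pollen, of which the profilin-3 above is 1, summed to 176 TPM in FS, 287 TPM in CS and 44.1 TPM in CON, and the 3 genes named for nodules to 18.1 TPM in FS, 39.5 TPM in CS and 6.31 TPM in CON. The 2 oleosin genes of the seed list summed to 19.6 TPM in FS, 57.6 TPM in CS and 24 TPM in CON, where 1 of them was at 0 tags. Legumin, vicilin, 2S albumin and leghemoglobin were in no table. Their part in the results was not tested, and in a library of whole leaves fewer cells of a type and less RNA per cell cannot be told apart.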

How the data were processed

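Tags were mapped by the authors with at most 1 mismatch (Bowtie 0.12.3 is named in the submitters' processing notes), and tags with fewer than 2 copies or matching several genes were removed. Counts were deposited as clean tags of a gene, or of a tag sequence. TPM values were scaled by the authors from the same counts to 1000000 clean tags. Only genes and tags past the authors' limits are in the tables, whose columns of log2 ratio, P-value and FDR were not used. The depth of each library was recovered from counts and TPM, and in CON totals of 11566378 and 11566379 both met the rounding. Intervals were tested on simulated data.

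The members, the roles and the lists of pathway and marker genes were chosen with earlier results of these data known. Genes were named by a rule: all actin, myosin and tubulin genes, the gene with the most tags in each role, the 5 genes furthest up and the 5 furthest down in each comparison and the largest change in each role, where the lower count reached 10 tags, and genes at 0 tags against at least 20. The remaining members were named so that each of the 37 genes has its value, and the pathway genes because there are few. Alternatives were TMM scaling, the ratio of TPM, 0.5 tags added, count minimums of 10 and 30 tags and a 4-fold limit. Others were an E-value limit of 1e-20, 1 Unigene per best hit, no genes at 0 tags and no genes of the other GTP-binding role. TMM factors came from edgeR 4.0.16 under R 4.3.3, and the rest from Python 3.11.15 with scipy 1.17.1, pandas 2.3.3, numpy 2.4.6 and matplotlib 3.10.9. No genome was used, so positions are not given.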

Additional observations from a re-analysis of the deposited data

Results flagged for a closer look

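In a pair of genes the CS over CON and FS over CON ratios had counting intervals on opposite sides of 0. For the putative small Ras GTP-binding protein (Unigene19451_All) the log2 ratio was 1.20 [0.99 to 1.40] for CS over CON and -0.27 [-0.53 to -0.02] for FS over CON. For the kinesin-related protein (Unigene55531_All) it was -1.75 [-2.82 to -0.79] for CS over CON and 0.69 [0.10 to 1.31] for FS over CON. The lower end of that last interval, 0.10, is smaller in size than the TMM shift of -0.11 in FS vs CON. Its side of 0 therefore depends on the scaling. Ratios of comparisons in which a gene was not listed were not recomputed under the alternatives. Both ratios exist only for the 15 genes with a count in every library, from which the pair was picked for this pattern. With 1 library per condition, sharing CON, the difference between the responses to cold and freeze stress was not tested.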

How the results depend on the processing

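No paired analysis was possible because each condition had 1 library, and for the same reason no replicate could be left out. A limit of at least 4-fold kept 8 listed genes in CS vs CON, 6 in FS vs CON and 7 in FS vs CS, by its own construction, with medians of -2.32, 2.63 and 2.45 on the log2 scale, and gave shares higher of 25.0% in CS vs CON and 100% in FS vs CON. The CS vs CON median was -0.09, with 50.0% of genes higher, when the genes at 0 tags were left out and when at least 30 tags were required in the higher library, and that minimum also gave a median of 1.01 in FS vs CON. The sign of the CS vs CON median therefore rests on few genes. The other 70 summary values stayed within their interval where they had one. They were within 1.5 times the reported value, apart from the FS vs CON median under some alternatives. It was 1.09, against 1.66, without the role of other GTP-binding proteins, without the genes at 0 tags and with each best hit counted once. The 70 values include those without the muscle myosin and paramyosin names, an alternative chosen after seeing the data. The 98 single-gene values kept their sign and stayed within their counting interval. TMM scaling over the listed genes moved log2 ratios by -0.12 in CS vs CON, -0.11 in FS vs CON and -0.13 in FS vs CS. It took 1 listed member in CS vs CON (myosin XI), 3 in FS vs CON (engB, the tubulin alpha chain and vacuolar sorting protein Unigene9918_All) and 3 in FS vs CS (gamma-tubulin, vacuolar sorting protein Unigene28324_All and dynamin) below 2-fold. The ratio of deposited TPM was not computed for genes at 0 tags. Levels of genes in no table are not known.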

Other observations

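Several of the kinesins are named for cell division, so other genes of cell division were searched by a short list of words. These were cyclin, cytokinesis, cell division control, cell division protein kinase, mini-chromosome, DNA replication, DNA polymerase alpha, histone H3 and a pair of CDC names. Names with F-box or FtsH were dropped. The list was written after the values had been seen and took no other histones. In CS vs CON 11 of these 16 genes were listed (50.2% of all genes were), 0 higher and 11 lower in CS (47.0% of all listed genes were lower). In FS vs CON 4 were listed (52.5% of all genes), 0 higher and 4 lower in FS (43.8% of all listed lower), and in FS vs CS 9 were listed (51.8% of all genes), 8 higher and 1 lower in FS (55.3% of all listed higher). The list was chosen on these values, so that the counts are a description and cannot be set against the shares of all genes. Whether cell division differed between the libraries was not tested. A protein regulator of cytokinesis (Unigene13112_All), of the family that bundles microtubules where the new cell wall forms, had 60 tags in FS, 5 in CS and 73 in CON. A D3-type cyclin (Unigene40147_All), which promotes entry into the cell cycle, had 52 tags in FS, 9 in CS and 60 in CON. A Histone H3.2 (Unigene29904_All) had 180 tags in FS, 32 in CS and 322 in CON, and the replication licensing factor MCM7 (Unigene7669_All) had 115 tags in FS, 22 in CS and 78 in CON. In each of these 4 genes CS was the lowest library, with log2 ratios for CS over CON of -3.92 [-5.59 to -2.63], -2.79 [-3.99 to -1.77], -3.39 [-3.96 to -2.86] and -1.88 [-2.63 to -1.18] in the order given. The exception in FS vs CS was a DNA polymerase alpha catalytic subunit (Unigene3172_All), with 48 tags in FS, 120 in CS and 146 in CON.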
